A study of Homo sapiens with 6 samples.

Results

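The 9 genes described here encode the Janus kinases JAK1, JAK2 and JAK3 and the transcription factors STAT2, STAT3, STAT4, STAT5A, STAT5B and STAT6, out of 19970 human protein-coding genes. They were chosen by name. For each gene, accessible sites were collected in the gene body and in 25 kb on either side, a span called the window of the gene here, in hg38 coordinates. The study measured chromatin accessibility in 6 libraries of GM12878, a B lymphoblastoid line transformed by Epstein-Barr virus and widely used as a reference in chromatin work. H3K27ac is an acetyl mark on histone H3 that is found at active promoters and enhancers. The high group (2 libraries) held cells gated for strong staining of this mark, the low group (2 libraries) cells gated for weak staining, and the live controls (2 libraries) were left unsorted. Before sorting, a viability dye was applied, paraformaldehyde was used as the fixative, and permeabilised cells received an antibody to the mark, after which gates were set on size, viability and staining. Sorted cells went into InTAC-seq, which adapts ATAC-seq to fixed material: Tn5 transposase places adapters in open DNA, and the crosslinks are reversed afterwards. For live material the labels' protocol describes fresh cells whose DNA was purified without crosslink reversal, which is taken here to cover the live controls. The labels name no transgene, deletion or drug in any group, and all libraries come from this single line. Replicates were aliquots of 50000 cells, so the p-values below measure the spread between aliquots. Fixation, staining, sorting and crosslink reversal all separate the sorted libraries from the live controls and cannot be told apart.

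The lists held between 25754 and 72476 summits, a summit being the base of an accessible site where the signal is highest. Replicate 1 of the high group had the shortest list and the 2 live controls the longest. Read depth is not given in the files, so the precision behind a single call is unknown. Summits closer than 250 bp were chained into 100513 regions on chromosomes 1 to 22 and X. To compare lists of unequal length, each library was reduced to its 25627 best-scoring regions, as many as the shortest list holds, and this set is called its best list. As a check of the labelled cell type, best-list regions were sought in the body of marker genes or within 1 kb of it. In all 6 libraries 5 of 10 B cell markers had one (6 to 9 per library), against 3 of 10 T and NK cell markers (3 to 5). The same held for 1 of 8 myeloid markers (1 or 2) and none of 5 erythroid markers (0 or 1). Over all 19970 genes the share was 50.7%, so the B cell share is near that of genes at large, and at the start 2 of the 10 B cell markers were open in all 6 best lists. B cell markers with such a region numbered 6 and 7 in the high group, 8 and 9 in the low group and 8 in each live control. Genes of all kinds ran the same way, with 11265 and 11764 in the high group, 12127 and 12128 in the low group and 12231 and 12174 in the live controls. The part of this in the results below was not tested.

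Janus kinases sit on the inner tails of cytokine and interferon receptors. When a cytokine draws the receptor chains together, the kinases phosphorylate each other and the receptor, STAT proteins dock there, are phosphorylated in turn, pair up and enter the nucleus, where most pairs bind palindromic sites known as GAS elements. STAT2 is the exception, since it acts with a STAT partner and IRF9 on interferon-stimulated response elements. In B cells the pathway carries signals such as interleukin 4 and interleukin 21, which steer activation and class switching.

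The sequences below show where the summits of the genes with a start region in every best list lie. Each is the 250 bases upstream of a transcription start, read 5′ to 3′ in the direction of transcription, from RefSeq promoter records on GRCh38.p14. RefSeq lists 17 starts for the 9 genes, and all 9 matched. In the first group the capitals run from the outermost summit of the libraries to the innermost, so they show how far the summit positions scatter. They do not mark the extent of a called site, which summit lists do not give.

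STAT2, chr12:56360108-56360357, minus strand: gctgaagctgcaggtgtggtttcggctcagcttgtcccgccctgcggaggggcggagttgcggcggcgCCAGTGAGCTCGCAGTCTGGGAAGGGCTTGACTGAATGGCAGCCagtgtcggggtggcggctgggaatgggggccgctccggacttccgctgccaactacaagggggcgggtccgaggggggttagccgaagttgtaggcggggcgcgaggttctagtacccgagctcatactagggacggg

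STAT3, chr17:42388443-42388692, minus strand: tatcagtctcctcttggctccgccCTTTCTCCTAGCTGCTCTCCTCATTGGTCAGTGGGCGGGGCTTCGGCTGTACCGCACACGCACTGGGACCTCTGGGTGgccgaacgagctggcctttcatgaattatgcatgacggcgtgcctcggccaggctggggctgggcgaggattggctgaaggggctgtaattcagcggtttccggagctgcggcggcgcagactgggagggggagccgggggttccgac

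STAT4, chr2:191150995-191151244, minus strand: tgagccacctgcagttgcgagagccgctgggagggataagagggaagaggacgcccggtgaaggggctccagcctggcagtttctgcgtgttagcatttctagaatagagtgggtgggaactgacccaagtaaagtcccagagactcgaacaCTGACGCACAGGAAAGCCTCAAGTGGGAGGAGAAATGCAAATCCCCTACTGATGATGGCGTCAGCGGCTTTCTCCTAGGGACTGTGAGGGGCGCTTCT

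JAK2, chr9:4985022-4985271, plus strand: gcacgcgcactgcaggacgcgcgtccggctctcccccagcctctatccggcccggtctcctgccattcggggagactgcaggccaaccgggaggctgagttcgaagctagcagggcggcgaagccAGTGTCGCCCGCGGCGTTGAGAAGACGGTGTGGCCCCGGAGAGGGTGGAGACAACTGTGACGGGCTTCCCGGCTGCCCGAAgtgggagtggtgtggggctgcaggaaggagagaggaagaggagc

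At STAT2 all 6 summits fell between 182 and 139 bases upstream of the start at 56360107. At STAT3 they fell between 226 and 149 bases upstream of the start at 42388442, and at JAK2 between 125 and 45 bases upstream of the start at 4985272. The JAK2 summits also lie downstream of the listed starts at 4984390 and 4985086, and so within the gene body. At STAT4 the span runs up to the start at 191150994, and 4 of the 6 summits lie in the printed bases, the others on the start or within the gene. The next sequences are shown for JAK1, which has a start without and a start with a best-list region, and for JAK3, which holds a rare match. Capitals mark CCGGAAG, an ETS-type motif, at the outermost JAK1 start, GGGCGG, an SP1-type motif, on either strand at the internal JAK1 start, and the 10 letters of an NF-kB-type motif at JAK3.

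JAK1 outermost start, chr1:65067747-65067996, minus strand: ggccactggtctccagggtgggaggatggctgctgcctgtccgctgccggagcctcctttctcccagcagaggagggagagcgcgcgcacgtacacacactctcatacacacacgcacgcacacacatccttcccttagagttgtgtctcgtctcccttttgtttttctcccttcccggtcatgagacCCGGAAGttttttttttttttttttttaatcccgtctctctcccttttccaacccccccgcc

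JAK1 internal start, chr1:64966550-64966799, minus strand: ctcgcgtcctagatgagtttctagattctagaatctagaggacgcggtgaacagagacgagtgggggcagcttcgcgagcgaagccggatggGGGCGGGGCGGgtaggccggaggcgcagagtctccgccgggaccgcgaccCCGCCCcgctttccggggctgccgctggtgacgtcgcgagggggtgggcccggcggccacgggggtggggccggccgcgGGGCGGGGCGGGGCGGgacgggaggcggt

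JAK3, chr19:17847983-17848232, minus strand: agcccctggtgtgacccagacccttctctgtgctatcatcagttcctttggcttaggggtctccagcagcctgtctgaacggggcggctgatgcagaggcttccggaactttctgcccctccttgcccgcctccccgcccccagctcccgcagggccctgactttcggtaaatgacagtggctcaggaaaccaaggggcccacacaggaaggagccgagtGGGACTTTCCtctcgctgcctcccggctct

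Motifs were searched on both strands in the 250 upstream bases of the 17 starts and of 22129 promoters of the same length. The GAS letters TTCNNNGAA had no match at the 17 starts, against 5.92% of all promoters, and the interferon response letters, GAAA followed by GAAA after 2 bases of any kind, had none either, against 2.71%. The form of GAS with TTC and GAA 4 bases apart occurred at a single start, 229 to 220 bases upstream of the STAT5A start at 42287439, and in 4.63% of all promoters. At 8 of the starts GGGCGG was present, 1 for each gene except STAT4, against 53.7% of all promoters, and the internal JAK1 start held 6 matches, some of them overlapping. CCGGAAG was found at JAK1 and JAK3 and in 10.7% of all promoters, and GAGGAAGT, a PU.1-type motif, at the outer STAT4 start and in 2.22%. The NF-kB-type letters stood 30 to 21 bases upstream of the JAK3 start and occurred in 0.185% of all promoters, 41 of 22129. CCAAT or its complement lay upstream of STAT3 and STAT6, with 32.7% of all promoters holding it, and in STAT3 the match 204 to 200 bases upstream falls inside the capitals shown above. TGACGTCA, the cyclic AMP response letters, and TATAAA were absent from all 17, against 2.02% and 9.0% of promoters. A match is a description of these letters only. Base composition differed widely among the starts: GC content ran from 38.0% at the middle JAK1 start to 82.0% at STAT5B, with a median of 62.0% over all promoters.

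The 9 windows together held 86 regions, of which 20 were called in all 6 libraries, 17 were in all 6 best lists and 25 were called in a single library. Regions in all 6 lists made up 23.3% of those in the windows and 19.8% of all regions. By position, 16 regions lay within 1 kb of a start of their own gene and 13 within 1 kb of a boundary of a neighbouring gene. A boundary is either end of the gene body or a listed start, so it can be where transcription starts or stops. Another 31 lay elsewhere in a gene body and 26 in the flanks. The best lists of the high libraries held 23 and 27 window regions, those of the low libraries 31 and 27, and those of the live controls 30 and 29. The high and low groups thus overlapped, at 25.0 ± 2.83 and 29.0 ± 2.83 regions (mean ± SD, n = 2 each; difference −4.0, two-sided exact permutation p = 0.667, adjusted p = 1.0 over 8 comparisons). The high and live libraries did not overlap, with 29.5 ± 0.71 regions in the live controls (difference −4.5, exact permutation p = 0.333, the smallest that 2 against 2 libraries allow, adjusted p = 0.8). Low against live gave −0.5 (exact permutation p = 1.0), and the 4 sorted libraries, at a mean of 27 ± 3.27, against live gave −2.5 (exact permutation p = 0.4, where the smallest possible is 0.0667). With best lists of 12813 regions the sorted libraries held 16 or 17 window regions and each live control 18, so that sorted and live no longer overlapped (difference −1.75, exact permutation p = 0.0667, the smallest possible). In the full lists, which differ in length, the 4 differences were −12.0, −34.0, −22.0 and −28.0 in the order above. Without high replicate 1, and with lists lengthened to 41828 regions, sorted against live turned to 1.17.

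**Figure D1:**
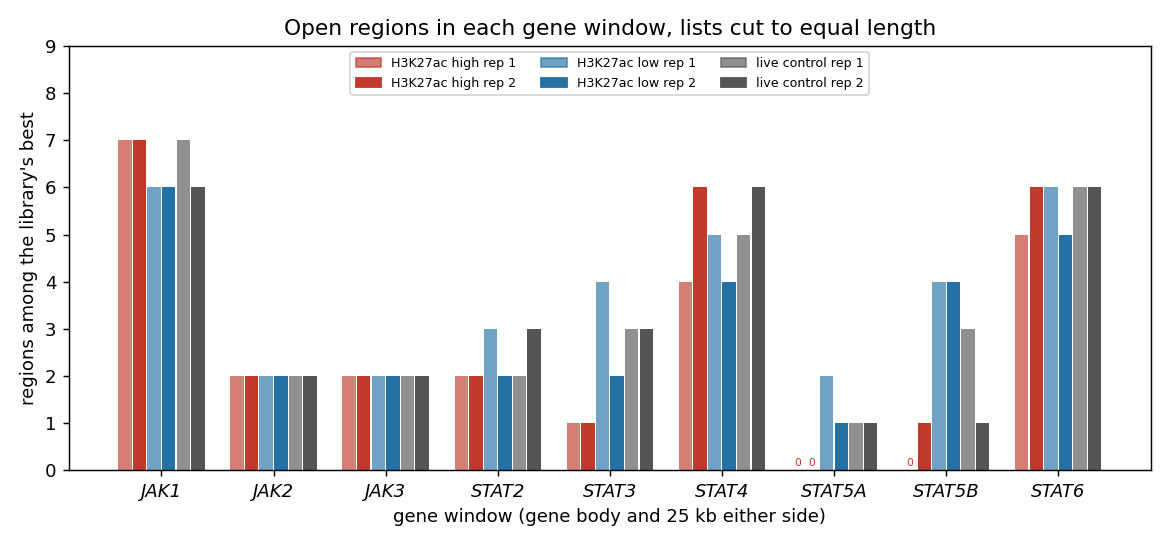
Bars give the number of best-list regions (vertical axis, regions among the library's best 25627) in the window of each gene, 1 bar per library, with 2 libraries in each of the 3 groups. JAK2 and JAK3 stand at 2 in every library, STAT5A stands at 0 in both high libraries, and STAT5B has 4 in both low libraries against 0 and 1 in the high libraries.

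Single windows differed in how many sites they held. JAK2 and JAK3 had 2 best-list regions in every library. JAK1 had 7 in both high libraries and 6 in both low ones, while the live controls had 7 and 6. It was the only one of the 9 windows where both high libraries stood above both low ones, which occurred in 3.11% of all gene windows. STAT3 had 1 region in each high library, 4 and 2 in the low group and 3 in each live control. STAT5A had none in the high group, 2 and 1 in the low ones and 1 in each live control. STAT5B had 0 and 1 in the high group, 4 in each low library, and 3 and 1 in the live controls. In these 3 windows both low libraries stood above both high ones, against 7.55% of all windows. STAT3 and STAT5A were also higher in both live controls than in both high libraries, a pattern of 9.12% of windows, and STAT5B was higher in both low libraries than in both live controls, a pattern of 6.32%. The 3 genes are neighbours on chromosome 17 and their windows share regions, 6 between STAT5A and STAT5B, 3 between STAT3 and STAT5A and 2 between STAT3 and STAT5B, so these counts are not independent. High replicate 1 had no summit in the STAT5A and STAT5B windows at all. In the full lists high replicate 2 held 3 regions at STAT5A, the same as each low library, and 7 at STAT5B, against 6 in each low library. Per length, the STAT6 window was the densest, with 7.58 to 9.1 best-list regions per 100 kb, and JAK2 had 1.02 in every library, while the median over all gene windows was 1.51 to 1.69.

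At the starts, 5 of the 9 genes, JAK1, JAK2, STAT2, STAT3 and STAT4, had a best-list region within 1 kb in all 6 libraries, against 41.7% of all protein-coding genes. The high libraries had 6 open starts each, the low libraries 8 and 7, and the live controls 7 each. Over all 19970 genes, open starts numbered 9164 and 9776 in the high group, 10206 and 10184 in the low group and 10062 and 10029 in the live controls, so the high group was lowest there too. High and low did not overlap (6.0 ± 0.0 against 7.5 ± 0.71, n = 2 each; difference −1.5, two-sided exact permutation p = 0.333, adjusted p = 0.8), nor did high and live (7.0 ± 0.0; difference −1.0, exact permutation p = 0.333, adjusted p = 0.8), and 2 against 2 libraries cannot give a smaller p. Low minus live was 0.5 and sorted minus live −0.25 (exact permutation p = 1.0 for both). The differences come from JAK3, STAT5A, STAT5B and STAT6. With lists of 12813 regions the high minus low difference turned to 0.5, and so did high minus live. Without high replicate 1, and with lists lengthened to 41828 regions, high minus live was 1.0.

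**Figure D2:**
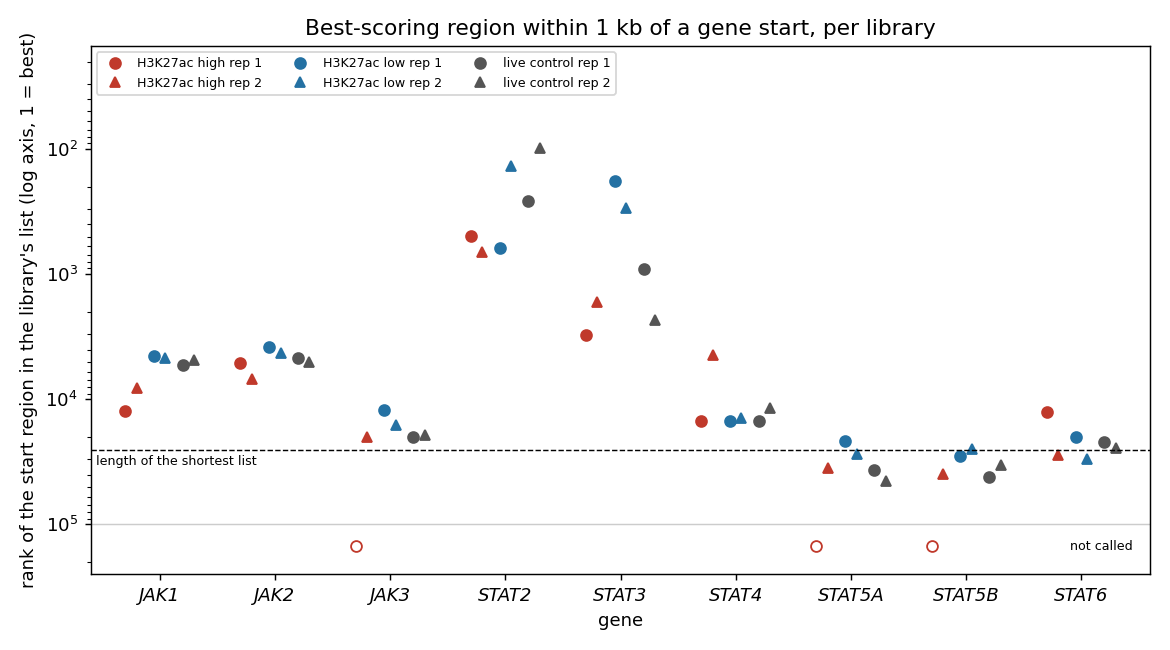
Points give the rank, in the list of each library, of the best-scoring region within 1 kb of a start of each gene (log axis, 1 is the best of the list), with open circles for starts that were not called. Lists differ in length, so the plot shows levels within each library. STAT2 lies between 98 and 666 in every library, STAT3 runs from 181 to 3058, and JAK3, STAT5A and STAT5B are not called in high replicate 1.

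To compare groups, the 19855 regions called in all 6 libraries were ranked again among themselves in each library, and log2 of their number over the rank was fitted with limma, 3 group means in 1 fit with p-values adjusted over all 19855 regions by the Benjamini-Hochberg method. A positive difference means a better rank in the first group, and a difference of 1 corresponds to a rank smaller by a factor of 2. Only 20 of the 86 window regions could be tested, since a region that is missing from any list has no rank there. Between high and low, limma called 0 regions of all 19855 at an adjusted p of 0.05 (0%) and 0 of the 20, while 3341 and 3 of them had an unadjusted p under 0.05. With normal scores of the ranks in place of the logarithm the count over all regions was also 0. Between high and live it called 708 of all regions (3.57%) and 1 of the 20, between low and live 748 (3.77%) and 2 of the 20, and between all sorted and live 1001 (5.04%) and 1 of the 20. The median difference over the 20 regions was 0.11, −0.06, 0.02 and 0.09 in these comparisons, and 0.03, 0.02, −0.01 and 0.02 over all regions. The last 3 comparisons share the live controls. Leaving out live replicate 2 took the counts over all regions in these 3 comparisons to 0, and leaving out live replicate 1 took them to 6, 0 and 11. Without high replicate 2, high against low had 2246 calls, 2 of them among the window regions. That fit holds 1 high library, and its spread is taken from the other groups.

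**Figure D3:**
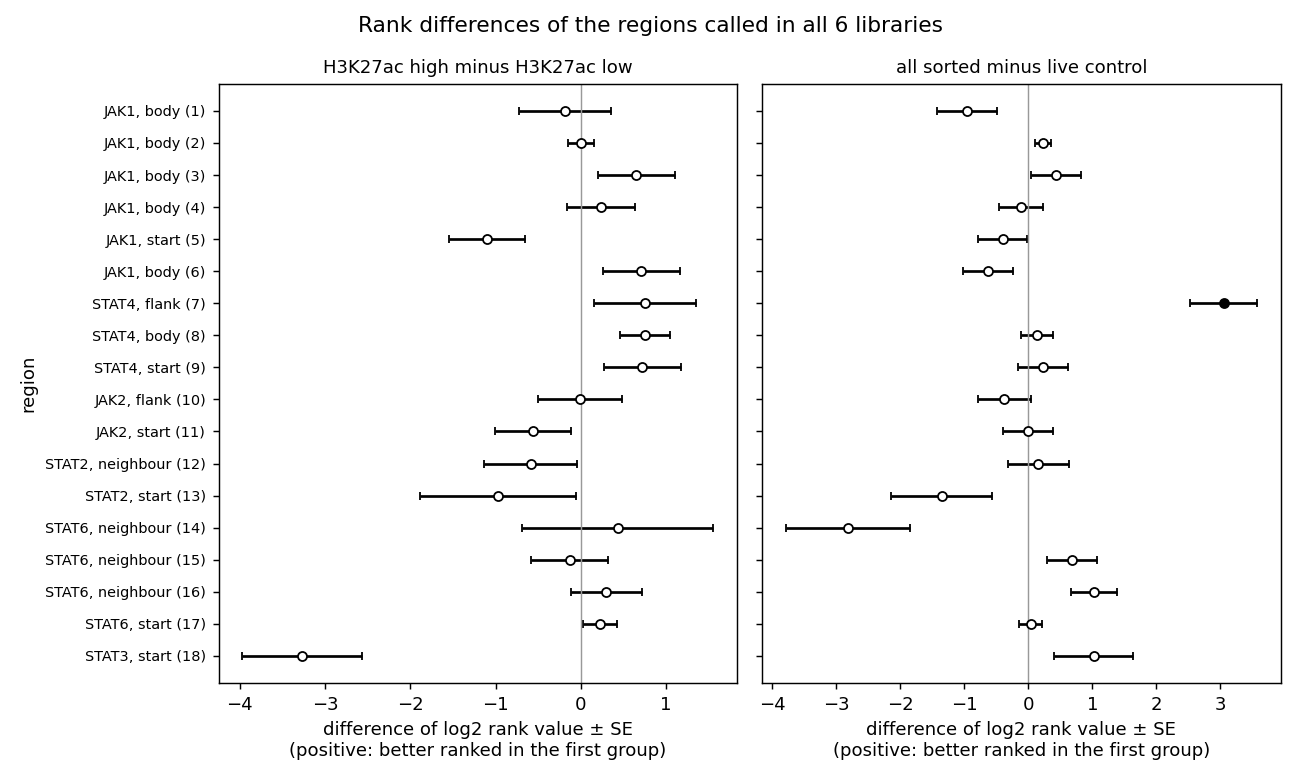
Points give the fitted difference of the log2 rank value, with bars of 1 SE, for the window regions called in all 6 libraries that are reported here, high minus low on the left and all sorted minus live on the right. Filled points have an adjusted p under 0.05. The STAT3 start lies at −3.27 on the left, and the STAT4 flank region is the filled point at 3.05 on the right.

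JAK1 pairs with many receptors, among them those for interferons and for the interleukin 2 and interleukin 6 families. Its window was the largest in number of sites, with 21 regions, 6 of them in all 6 lists. No best-list region lay within 1 kb of its outermost start at 65067746, where 3 regions were called in 2 libraries each, none of them in a high library. Internal starts are listed at 64966549 and 64966936, and the open region, chr1:64966487-64966610, lay within 1 kb of both, nearest to 64966549. Among the common regions it ranked 11670 and 7753 in the high group, 4347 and 4543 in the low group and 5152 and 4685 in the live controls. Both high libraries were lower placed than the other 4, and both low libraries were ahead of both live controls. The share of all regions with such an order is not given, here or for the sites below. Orders of this kind are therefore not read as particular to a gene. The high minus low difference was −1.10 ± 0.44 (SE; limma adjusted p = 0.230), which did not pass. Among 9015 gene starts open in all 6 full lists, the order of low and live was the other way round, with 4211 and 4267 in the low group and 4029 and 3694 in the live controls.

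The best-placed site of JAK1 was in the gene body, chr1:64864260-64864339, 102229 bp downstream of the internal start at 64966549. Its ranks among common regions were 2792 and 3220 in the high group, 2133 and 3239 in the low group and 1184 and 1757 in the live controls. Both live controls ranked it better than all 4 sorted libraries, by a fitted −0.96 ± 0.47 for sorted minus live (limma adjusted p = 0.242). Other body regions of JAK1 stood the opposite way round. The region at chr1:64895600-64895694 was in the best lists of all 4 sorted libraries and in neither live best list, at list ranks 16279, 23031, 21912 and 19222 against 29527 and 45744. In the fit its sorted minus live difference was 0.23 ± 0.13 (limma adjusted p = 0.322). Close by, chr1:64898654-64898731 was in both high best lists, at 18835 and 21520, and in no low one, being uncalled in low replicate 1 and at 39124 in low replicate 2. A flank region 7830 bp upstream of the outermost start, chr1:65075520-65075585, was in both live best lists, at 22591 and 20062, and in no sorted one.

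Regions that switched in this way were counted in the windows and genome-wide. Of the 39 window regions in any best list, 1 was in both high and no low best list, against 2.37% of 41408 such regions genome-wide, and 2 were in both low and no high best list, against 3.30%. In both high and no live best list there were 3, against 3.75%, and in both live and no high best list also 3, against 4.82%. In both low and no live best list there were 2, against 4.12%, and in both live and no low best list 2, against 4.08%. In all 4 sorted and no live best list there were 2, against 1.42%, and in both live and no sorted best list 1, against 2.18%. Each of these counts is 1 to 3 regions. They also share regions, since a region in all 4 sorted and no live best list counts for high and for low against live as well. The counts are therefore not independent, and their differences from the genome-wide shares were not tested.

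JAK2 serves the receptors for erythropoietin, thrombopoietin, growth hormone and interferon gamma. Its body spans 145559 bp and its window 195559 bp, with 3 regions in all, 2 of them in all 6 best lists. The start region, chr9:4985147-4985227, ranked 4983 and 6638 among common regions in the high group, 3682 and 4146 in the low group and 4569 and 4864 in the live controls. The libraries lay close together, with the low group best placed and the high group last, and no contrast passed (high minus low −0.56 ± 0.45, limma adjusted p = 0.557). The other region, chr9:4971472-4971570, lies 12854 bp upstream of the outermost start. It ranked 15635 and 5520 in the high group, 11800 and 7222 in the low group and 6110 and 8357 in the live controls, so the 2 high libraries were further apart than the group means.

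JAK3 binds the common gamma chain of the interleukin 2 receptor family and is largely limited to lymphoid and other blood cells. Its start region, chr19:17847889-17847975, had list ranks of 19942 in high replicate 2, 12150 and 16113 in the low group and 20180 and 19356 in the live controls, and was not called in high replicate 1. That library instead held a summit at 17849032, 1050 bp upstream of the start and so just outside the 1 kb limit, at rank 23839. Without high replicate 1 the start could be fitted, with high minus low at −0.47 ± 0.39 (limma adjusted p = 0.706).

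STAT2 carries type I interferon signals together with IRF9. Its start region, chr12:56360246-56360289, was the best placed of the 9 starts in every library except low replicate 1, where STAT3 was ahead. The site lies 150 bp upstream of the STAT2 start and also 311 bp from a boundary of APOF, so the assignment to STAT2 rests on position alone. Its ranks among the common regions were 489 and 664 in the high group, 618 and 137 in the low group and 259 and 98 in the live controls. Both live controls ranked it better than both high libraries, and the low libraries spanned the range. High minus live was −1.84 ± 0.91 (limma adjusted p = 0.243). Among 9015 gene starts open in all 6 full lists, STAT2 placed between 103 and 693. A second site in the window, at a boundary of PAN2, chr12:56334034-56334082, ranked between 1608 and 3443 among common regions in the 6 libraries.

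STAT3 is the main STAT of the interleukin 6, interleukin 10 and interleukin 21 receptors. Its start region, chr17:42388591-42388668, lies 168 bp upstream of the start, in the capitals of the sequence above. It ranked 2984 and 1644 among common regions in the high group, 180 and 294 in the low group and 909 and 2321 in the live controls. Both low libraries placed it better than all 4 others, while high and live ranks overlapped. Low minus live was 2.66 ± 0.70 (limma adjusted p = 0.0465), a rank better by a factor of 6.31, and high minus low was −3.27 ± 0.70, a factor of 9.63 (unadjusted p = 0.000267, adjusted p = 0.112). Low minus live lost its call without either low library (adjusted p = 0.381 and 0.183) or either live control (0.126 and 0.339), and with normal scores of the ranks (0.0637), with the direction unchanged in each. Without high replicate 2 the high minus low difference was −3.70 (limma adjusted p = 0.0180), but the high group then holds 1 library, which is assumed to vary like the other groups.

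Within the STAT3 body 2 sites were open in the live controls and absent from the high best lists. The site at chr17:42337555-42337670, 50795 bp downstream of the start, was not called in high replicate 1 and had list ranks of 33398 in high replicate 2, 15407 and 23760 in the low group and 9422 and 11051 in the live controls. It was thus in both low and both live best lists and in neither high one. Without high replicate 1 its sorted minus live difference was −1.12 ± 0.32 (limma adjusted p = 0.0537). The site at chr17:42322916-42322974 was called in neither high library, at 19492 and 26894 in the low group and at 7825 and 20238 in the live controls. It also lies in the window of STAT5A.

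**Figure D4:**
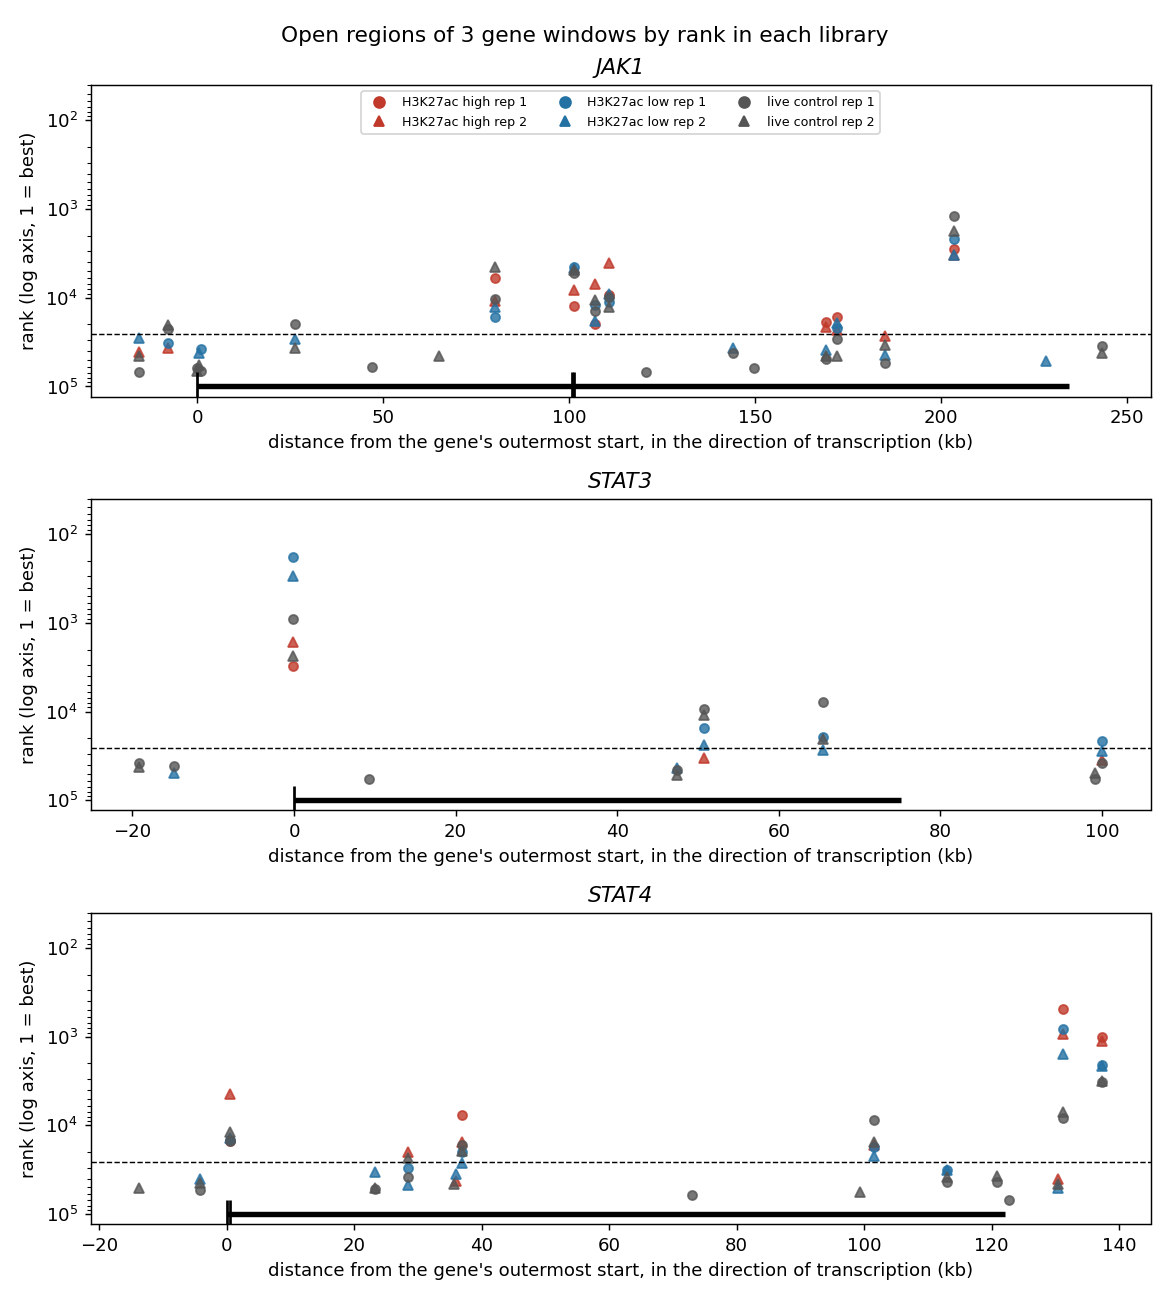
Points give the rank of every region (log axis, 1 is the best of the list) in the windows of JAK1, STAT3 and STAT4 against its distance in kb from the outermost start, 1 colour per group and 1 marker per replicate. The thick bar is the gene body, short vertical bars are RefSeq starts and the dashed line is the length of the shortest list. Points of JAK1 are spread along the body, STAT3 has its best region at the start, and in STAT4 the best regions lie beyond the far end of the gene.

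STAT4 answers to interleukin 12 and is best known from T and NK cells. Its start region, chr2:191150970-191151092, sits on the internal start at 191150994. It ranked 13608 and 4287 among common regions in the high group, 12857 and 12336 in the low group and 12651 and 10494 in the live controls. High replicate 2 alone stood out, and no contrast passed (high minus low 0.72 ± 0.45, limma adjusted p = 0.434). In the body, chr2:191114521-191114705 ranked 7336 and 13577 in the high group, 15864 and 17824 in the low group and 13592 and 14889 in the live controls. High replicate 1 stood ahead of all other libraries, while high replicate 2 was about level with live replicate 1. High minus low was 0.75 ± 0.29 (limma adjusted p = 0.218).

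The window region with the largest fitted difference between all sorted libraries and the live controls lay in the flank beyond the 3′ end of STAT4, at chr2:191020404-191020419, 131 bp from an annotated transcript, LOC124900514. It ranked 486 and 922 among common regions in the high group, 822 and 1551 in the low group and 7771 and 6670 in the live controls. All 4 sorted libraries were far ahead of both live controls, and high and low overlapped. Sorted minus live was 3.05 ± 0.52 (limma adjusted p = 0.00622), a rank better by a factor of 8.28. High minus live was 3.43 ± 0.60 (adjusted p = 0.0123) and low minus live 2.67 ± 0.60 (adjusted p = 0.0243), both by limma and against the same controls. High minus low was 0.75 ± 0.60 (adjusted p = 0.546). Without a single library the sorted minus live difference stayed between 2.82 and 3.28, but its call was lost without low replicate 1 (adjusted p = 0.0622), live replicate 1 (0.109) or live replicate 2 (0.0961). The call of high minus live was lost without low replicate 2 (0.0564) or either live control (0.12 and 0.11), and that of low minus live without either low library (0.329 and 0.125) or either live control (0.180 and 0.168).

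STAT5A and STAT5B are close paralogues that carry interleukin 2 and growth hormone signals, and their genes point away from each other on chromosome 17. Their starts were among the weakest of the 9. The best start region of STAT5A was not the same site in every library. At chr17:42288378-42288422 the list ranks were 35560 in high replicate 2, 21491 and 27589 in the low group and 37986 in live replicate 1. That region was uncalled in live replicate 2. In the live controls other sites near the STAT5A starts were best, at 36751 in replicate 1 and 45023 in replicate 2. STAT5B had its best start region at 39447 in high replicate 2, 28194 and 25102 in the low group and 41958 and 33396 in the live controls. Neither gene had a start region called in high replicate 1. The STAT5A region at chr17:42288378-42288422 also lies next to the annotated 5′ end of the STAT5B body at 42288370, where the promoter records list no start, so its assignment rests on the listed starts. Each was in the best list of a single library, low replicate 1 for STAT5A and low replicate 2 for STAT5B, the latter just inside the limit of 25627. For the STAT5B start the fit without high replicate 1 gave a high minus low difference of −0.27 ± 0.18 (limma adjusted p = 0.619).

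Some other sites of the STAT5B window lay near boundaries of neighbouring genes. At a boundary of KCNH4, a potassium channel gene, chr17:42181302-42181405 was in both low best lists, at list ranks 14891 and 12210, and in no high one. It stood at 35430 in high replicate 2 and at 23426 and 27165 in the live controls. At a boundary of GHDC, chr17:42194489-42194550 was at 20830 in high replicate 2, 16137 and 16145 in the low group and 5645 and 6999 in the live controls. Both live controls placed it ahead. In the fit without high replicate 1, over 29473 regions, sorted minus live was −1.48 ± 0.35 (limma adjusted p = 0.0251) and low minus live −1.32 ± 0.37 (adjusted p = 0.0478). That fit called 5.03% and 5.81% of all regions in these comparisons, and 2 and 3 of the 30 window regions.

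STAT6 is the mediator of interleukin 4 and interleukin 13. Its start region, chr12:57110520-57110570, had list ranks of 12650 and 27616 in the high group, 19993 and 29948 in the low group and 21812 and 24546 in the live controls, and so was in 4 of 6 best lists. Replicates of a sorted group were further apart than the groups, and high minus low among common regions was 0.22 ± 0.20 (limma adjusted p = 0.621). The best site of all 9 windows in 5 of the 6 libraries lay in the STAT6 window in NEMP1, 123 bp from a boundary of that gene, at chr12:57078872-57078991. It ranked 266 and 52 among common regions in the high group, 155 and 163 in the low group and 21 and 18 in the live controls. Both live controls placed it ahead of all sorted libraries, without passing (sorted minus live −2.81 ± 0.97, limma adjusted p = 0.101). A further switch in this window was a region within NAB2, chr12:57094041-57094073. It was in all 4 sorted best lists at list ranks 19232 to 23966, but at 28415 in live replicate 2 and uncalled in live replicate 1. The region at chr12:57111396-57111469, 1164 bp upstream of the STAT6 start, was in both live best lists, at 19988 and 16510, and in no low one.

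Likeness to other genes was measured as the Euclidean distance of log2 list ranks of the start regions over the 6 libraries, among up to 9014 other genes that had a start region in all 6 lists. This was possible for 6 members. The closest gene was ELMO2 for JAK1 and RTP4 for STAT6, both at a distance of 0.21, and TMEM267 for JAK2, at 0.31. ZNF275 was closest to STAT4, at 0.73, KIFC1 to STAT3, at 1.25, and SLC30A5 to STAT2, at 1.36. For KIFC1 the list ranks were 4250 and 2268 in the high group, 293 and 300 in the low group and 578 and 1694 in the live controls. It thus had the low libraries ahead of the high and live ones, as at STAT3. KIFC1 was picked for having the closest ranks, so a similar order is built into the choice.

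Around the members, the pathway was open to different degrees. Among 28 cytokine receptor genes 8 had an open start in all 6 best lists and 13 in none, against 8318 and 8895 of all 19970 genes. Of 19 ligand genes the counts were 5 and 11. Among 19 inhibitors of the pathway, such as the SOCS and PIAS genes, 13 were open in all 6 lists and 2 in none, and among 16 partners and target genes 11 and 2. The share over the whole genome was the 41.7% given above. IL10RB, a chain of the interleukin 10 receptor, was open in both low and no high best list. It was also open in live replicate 2, at list rank 22376. BCL6, a transcriptional repressor of germinal centre B cells, was open in both high and no low best list. Its list ranks were 19567 and 22336 in the high group and 33179 and 27751 in the low group. The fitted high minus low difference of BCL6 was only 0.14 ± 0.13 (limma adjusted p = 0.615). The share of all gene starts that switch in these ways is not given, so neither switch is read as particular to its gene. In the limma fit none of the 7 receptor, 5 ligand, 15 inhibitor and 12 partner or target genes with a testable start was called between high and low. The median high minus low differences of these start regions were −0.45, −0.18, −0.76 and −0.37 in this order. The median over all regions was 0.03, but it includes regions away from starts. No median over the starts of all genes is given, and open starts of all genes were also fewest in the high group. The medians are therefore not read as particular to the pathway. Against live, none of the receptors or ligands was called. Of the inhibitors, SH2B3, an adaptor that restrains JAK2, was called as better ranked in sorted cells (3.62 ± 0.46, limma adjusted p = 0.0024). Of the partners and targets, the kinase gene PIM1 was called as better ranked in low than in live (2.04 ± 0.54, adjusted p = 0.0481), and TYK2, the remaining Janus kinase, as worse ranked in high than in live (−2.85 ± 0.68, adjusted p = 0.0357). The high minus low difference of TYK2 was −3.41 ± 0.68 (limma adjusted p = 0.112). SH2B3, PIM1 and TYK2 were named after their values were seen.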

How the data were processed

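Accessibility was measured in 6 libraries. The authors deposited 1 summit list per library, each summit with a score on a −log10 scale, for which the files do not tell p from q values. Per the submitters' processing notes, bcl2fastq, FastQC, Bowtie2, Picard and MACS2 were used, and both hg38 and hg19 are named. Summits here reach 83205829 on chromosome 17 and 64286025 on chromosome 20, past the chromosomes' ends in hg19 and within those of hg38. The scores grow with depth, which is not given in the sources used here, so only their ranks within a list were used, with ties drawn at random. Per the labels' protocols the stain was against H3K37ac, read here as H3K27ac, which the sample labels give.

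Summits were chained within 250 bp, and gene bodies were taken from RefSeq. Genes without a listed start (15811 of 19970 have one) used either end of the gene body. Regions were called genic or flanking by position alone, since exons and introns were not used here. Group counts were compared by exact permutation over libraries and ranks by limma 3.58.1 in R 4.3.3 (lmFit, eBayes with trend), with Benjamini-Hochberg adjustment. On simulated data over 19855 regions, in which shifts were given to the high libraries only, the fit for high against low recovered 68 of 100 regions shifted by 2 on the log2 scale of the score and 8 of 100 shifted by 1, and called 0 unshifted regions. The rule named all 9 genes, window regions near a start, those called by the fit, those in both best lists of one group and neither of another and, of the pathway genes, those called for high against low or open in both libraries of one sorted group and neither of the other. Outside it, and after their values were seen, SH2B3, PIM1, TYK2 and some well-ranked body, flank and neighbour sites of JAK1, JAK2, STAT2, STAT4, STAT5B and STAT6 were named. The members and lists were chosen with earlier results of these data known. Replicate numbers were not used as pairs in the main fit, and the deviations of same-numbered libraries correlated at 0.07 or less over the 19855 regions. Such correlations cannot tell whether the libraries were made in pairs. No pair of lists was identical. Alternatives were list length, window, start distance, chaining distance, rank scale, a replicate block and leaving out each library. Some results on neighbouring genes are not reported here.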

Additional observations from a re-analysis of the deposited data

How the results depend on the processing

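With lists cut to 12813 regions, high minus low turned to 0.5 for window regions and to 0.5 for open starts, high minus live to 0.5 for open starts and sorted minus live to 0.25 for open starts. Chaining summits within 1000 bp turned low minus live to 1.5 window regions and sorted minus live to 0.25 open starts, and a start distance of 2500 bp gave 0.5 open starts for sorted minus live. Without high replicate 1 and with lists lengthened, an alternative chosen after seeing the data, sorted minus live was 1.17 window regions and 1.0 open starts, and high minus live was 1.0 open starts. Leaving out each library in turn gave high minus low −6.0 to −2.0, high minus live −6.5 to −2.5, low minus live −2.5 to 1.5 and sorted minus live −3.83 to −1.17 window regions, and −2.0 to −1.0, −1.0 to −1.0, 0.0 to 1.0 and −0.67 to 0.0 open starts. The cause was not tested.

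With the replicate number as a block, window differences stayed at −4.0, −4.5, −0.5 and −2.5 and start differences at −1.5, −1.0, 0.5 and −0.25. The blocked rank fit called 170 regions for high minus low, 1377 for high minus live, 1160 for low minus live and 1533 for sorted minus live. Of the window regions it called 1, the STAT3 start, for high minus low (−3.27, limma adjusted p = 0.0324), and no other window call changed. The numbers share no pairing in the labels. Normal scores left 1 window region called for low minus live. Leaving out each library gave 0 to 2246, 0 to 2924, 0 to 1711 and 0 to 2513 calls over all regions in the order above, and 0 to 2, 0 to 2, 0 to 3 and 0 to 2 among the window regions. The STAT4 flank difference kept its sign in each of these (2.82 to 3.28 for sorted, 3.02 to 3.89 for high and 2.22 to 3.13 for low minus live), as did the STAT3 start (1.98 to 3.33 for low minus live, −3.70 to −2.84 for high minus low).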
